A study of Mus musculus with 12 samples.

Results

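The genes described here belong to the receptors and turnover of hyaluronan: the receptors Lyve1, Stab2 and Cd44, the synthase Has2, the hyaluronidases Hyal1 and Hyal2, the heavy chain genes Itih2 and Itih5, and Tnfaip6. These 9 genes were chosen by name, and their rows were taken from the platform annotation, with the brightest row for each gene. A row of their own was present for 8 of the 9 genes, and 7 passed the filter on dim signals, out of 30713 genes with a row and 19674 tested. Hyal1 shared its only row with other genes, and Tnfaip6 was too dim to be tested.

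Expression was measured on whole-transcript arrays in endothelial cells sorted from the ear skin of C57BL6 mice, 5 weeks old (adult in the sample labels). All carried the reporter Tg(Prox1-EGFP)KY221Gsat, here Prox1-GFP, in which the control region of Prox1 drives a green protein in lymphatic endothelial cells (LEC). Cells were enriched on PECAM1 beads, and LEC were then sorted on podoplanin and the reporter. Collecting vessel cells (col LEC) had low or no surface LYVE1, pre-collecting cells (pre-col LEC) an intermediate level and capillary cells (cap LEC) a high level. Blood endothelial cells (BEC) were PECAM1-positive and lacked podoplanin, the reporter and LYVE1. There were 4 groups with 3 arrays apiece. The labels call these biological replicates but do not say how many mice an array stands for, so p-values measure the spread between these samples. No treatment or mutation separated the groups, and the LEC subtypes are gates on a protein, not dissected vessels. Values are log2 RMA values.

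Hyaluronan is a long unbranched sugar chain of the skin matrix, spun out at the cell surface by hyaluronan synthases and drained from tissue largely through the lymph. Endothelial receptors bind it, hyaluronidases at the cell surface and in lysosomes cut it, and the protein TSG-6 can attach heavy chains of the inter-alpha-trypsin inhibitor family to it, which changes how the chains cross-link. LYVE1 is widely used as the marker of lymphatic capillaries.

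Markers were first set against the labels. The mean level of 5 lymphatic endothelial marker genes, of which Prox1 (through its reporter) and Pdpn were used in the sort, lay between 12.19 and 12.61 on the 9 LEC arrays, against 7.20 to 8.43 on the BEC arrays, with the highest BEC value on replicate 1. Markers of lymphatic capillaries (Mrc1, Piezo2 and Reln) averaged 9.33 to 9.51 in col LEC, 10.10 to 10.51 in pre-col LEC and 10.74 to 10.85 in cap LEC. The 5 valve and collecting vessel markers (Foxc2, Gata2, Itga9, Cldn11 and Foxp2) averaged 9.76 to 9.85, 9.32 to 9.58 and 9.15 to 9.26 in the same groups. Of these 5, 4 were higher in col LEC than in cap LEC, and 2 were called higher (adjusted p under 0.05, limma). Of all genes, 0.661% were called higher there. Itga9 went the other way, with means of 10.66 in col LEC and 10.76 in cap LEC. The mean of 7 blood endothelial markers was 7.72 to 8.29 on LEC arrays, against 11.15 to 11.36 on BEC arrays. Genes of mural cells, which wrap blood vessels, averaged 6.80 to 8.44 on LEC arrays, highest on pre-col LEC replicate 1, against 9.36 to 9.65 on BEC arrays (8 genes). Fibroblast markers stood apart on col LEC replicate 1 (7.51) and pre-col LEC replicate 1 (8.16), with 6.56 to 6.98 on the other LEC arrays and 6.70 to 6.83 on BEC arrays (7 genes). Correlations over the genes tested were 0.971 to 0.988 between arrays of a group. They were no lower across the LEC subtypes (0.974 to 0.989), whereas pairs of an LEC and a BEC array had 0.904 to 0.923.

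**Figure D1:**
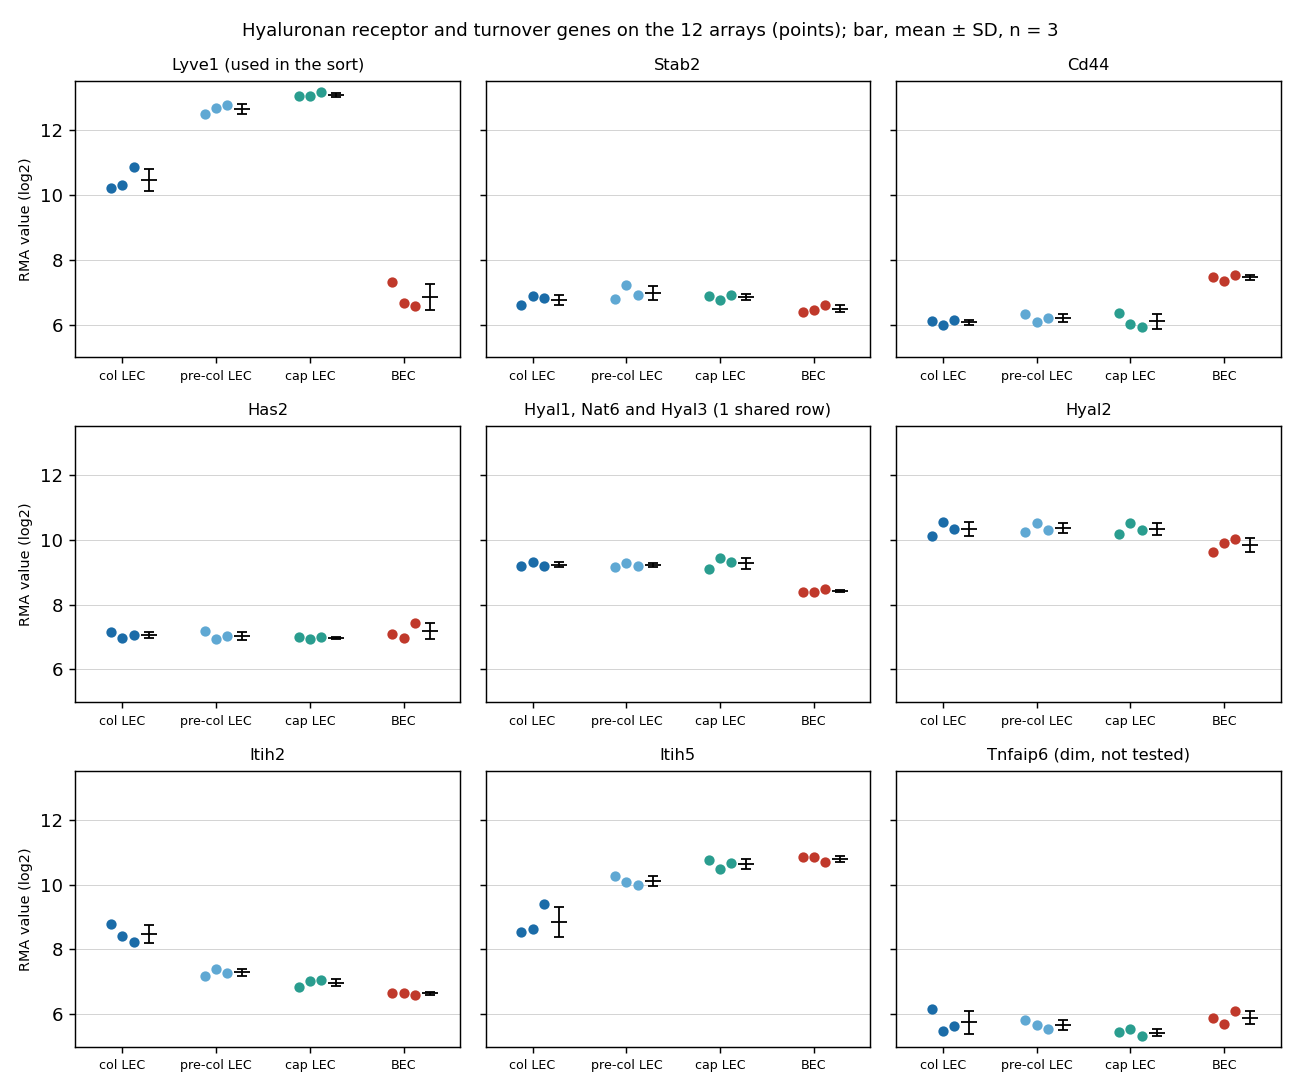
RMA value (log2) on each array, by group, of the 8 genes with a row of their own and of the row that Hyal1 shares with Nat6 and Hyal3. The mean ± SD over 3 arrays is at the right of the points. Itih2 is highest and Itih5 lowest in col LEC, Cd44 is highest in BEC, and Has2 and Hyal2 lie level over the 3 LEC groups.

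The receptor genes are given first. Lyve1 (TC0700004104.mm.1), the receptor whose protein was used in the sort, is described without a test. It had 10.20, 10.30 and 10.84 in col LEC, 12.47, 12.68 and 12.76 in pre-col LEC, 13.05, 13.04 and 13.15 in cap LEC and 7.30, 6.65 and 6.57 in BEC. No 2 of the 4 groups overlapped, and the order of the transcript followed the order of the gates on the protein. The distance between col LEC and pre-col LEC means (-2.19) was wider than that between pre-col LEC and cap LEC (-0.45). Col LEC, gated as low or negative for the protein, still averaged 3.60 log2 units above BEC. The BEC array with the highest Lyve1 value, replicate 1, was also the BEC array with the highest level of lymphatic markers. The part of other cells in that value was not tested, and in sorted bulk samples fewer cells of a type and less RNA per cell cannot be told apart.

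Stab2 (TC1000002629.mm.1) encodes stabilin-2, the scavenger receptor that clears hyaluronan from the circulation in liver and lymph node sinuses. Its values were 6.59, 6.87 and 6.82 in col LEC, 6.77, 7.21 and 6.92 in pre-col LEC, 6.89, 6.76 and 6.92 in cap LEC and 6.40, 6.44 and 6.61 in BEC. All arrays were close together, and only the col LEC group overlapped BEC. Taken over the 3 LEC groups, Stab2 was higher than in BEC by a log2 fold change of 0.38 ± 0.10 (SE, adjusted p = 0.0137, limma). The call was lost without BEC replicate 1 (0.34, adjusted p = 0.0594) or BEC replicate 2 (0.36, adjusted p = 0.0521). By group, col LEC alone did not pass the test against BEC. Pre-col LEC (0.49, adjusted p = 0.0145, lost in 2 of 21 settings) and cap LEC (0.37, adjusted p = 0.044, lost in 11 of 21) did. The BEC values were dim, not far above the array medians of 6.06 to 6.17. Between LEC groups no difference passed the test, and the 95% interval of col LEC minus cap LEC ran from -0.35 to 0.16.

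Cd44 (TC0200004219.mm.1), the hyaluronan receptor of leukocytes and many stromal cells, ran opposite to Lyve1 and Stab2 between LEC and BEC. It had 6.10, 5.97 and 6.12 in col LEC, 6.32, 6.08 and 6.21 in pre-col LEC and 6.34, 6.02 and 5.92 in cap LEC, against 7.47, 7.35 and 7.53 in BEC. Every BEC array lay above every LEC array, while the LEC groups overlapped one another. Cd44 was lower in LEC than in BEC by 1.33 on the log2 scale (log2 fold change -1.33 ± 0.09, SE, adjusted p = 3.72e-07). It exceeded the array median, the cut used for dim signals, on the 3 BEC arrays and on 4 of the 9 LEC arrays, with 5 LEC arrays below it. The size of the difference therefore rests on LEC values near that cut. The call held in all 20 alternative settings, with values from -1.38 to -1.26. Within LEC the interval for col LEC minus cap LEC was -0.27 to 0.22.

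Markers of other cells moved with the Cd44 comparison. All 8 mural markers were lower in LEC than in BEC. Of 6 keratinocyte markers 3 were tested, and 2 of these were lower in LEC, Krt5 (-0.44) and Krt14 (-0.41). The mean of the 6 was 5.99 to 6.37 on LEC arrays, against 6.25 to 6.54 on BEC arrays, and Krt1, Trp63 and Dsg3 exceeded the array median on 0 arrays. Of the 5 tested fibroblast markers and the 4 tested macrophage and leukocyte markers, 0 were called in either direction in LEC minus BEC. The fibroblast markers went both ways there, with a median of -0.38 and 1 of the 5 positive. In cap LEC minus BEC, 2 of the 5 fibroblast markers were called lower. Ptprc, the pan-leukocyte gene CD45, exceeded the array median on 0 of the 12 arrays. The part of mural cells, keratinocytes and fibroblasts in the Cd44 difference was not tested.

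Among the enzymes, Has2 (TC1500001548.mm.1), a synthase that makes hyaluronan at the plasma membrane, was level. Its values were 7.15, 6.97 and 7.08 in col LEC, 7.18, 6.93 and 7.03 in pre-col LEC, 7.00, 6.95 and 7.00 in cap LEC and 7.10, 6.97 and 7.44 in BEC. All groups overlapped, and BEC replicate 3 lay above every other array. The 95% interval of the difference was -0.16 to 0.34 for col LEC minus cap LEC and -0.35 to 0.06 for LEC minus BEC (adjusted p = 0.314).

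Hyal2 (TC0900001375.mm.1) encodes a hyaluronidase anchored to the cell surface that cuts long chains into fragments. It had 10.11, 10.54 and 10.32 in col LEC, 10.22, 10.52 and 10.31 in pre-col LEC, 10.17, 10.52 and 10.29 in cap LEC and 9.61, 9.89 and 10.01 in BEC. Every LEC array lay above every BEC array, and the LEC groups covered almost the same range. Hyal2 was higher in LEC than in BEC by 0.50 ± 0.12 (log2 fold change, SE, adjusted p = 0.00802, 1.41-fold). Col LEC minus cap LEC had an interval of -0.31 to 0.31. Against BEC, each LEC group alone passed the test (adjusted p = 0.0353 for col LEC, 0.0279 for pre-col LEC and 0.0287 for cap LEC). Each of these 3 calls was lost without BEC replicate 1 (adjusted p = 0.114, 0.0928 and 0.0919) and after cyclic loess (0.112, 0.0636 and 0.136). The calls for col LEC, pre-col LEC and cap LEC reached their highest leave-one-out p without replicate 2 of that same group (0.146, 0.107 and 0.113).

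The only row that names Hyal1, the lysosomal hyaluronidase, also names Nat6 and Hyal3. That row (TC0900001376.mm.1) had 9.18, 9.32 and 9.17 in col LEC, 9.16, 9.27 and 9.19 in pre-col LEC and 9.10, 9.44 and 9.29 in cap LEC, against 8.39, 8.39 and 8.46 in BEC. It was higher on every LEC array than on every BEC array, and the LEC groups overlapped. Because the signal cannot be assigned to any of the 3 genes, no test is given.

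Apart from Lyve1, the heavy chain genes were the members that set col LEC apart from the other lymphatic subtypes. Itih2 (TC0200002945.mm.1) encodes heavy chain 2, which circulates joined to bikunin and can be moved onto hyaluronan. It had 8.80, 8.41 and 8.23 in col LEC, 7.18, 7.41 and 7.28 in pre-col LEC, 6.85, 7.03 and 7.06 in cap LEC and 6.67, 6.66 and 6.60 in BEC. The groups did not overlap, and col LEC stood well clear of the other 3.

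Itih2 was 2.82-fold higher in col LEC than in cap LEC (log2 fold change 1.50 ± 0.13, SE, adjusted p = 0.000109) and 2.27-fold higher than in pre-col LEC (1.19 ± 0.13, adjusted p = 0.00255). Pre-col LEC and cap LEC, neighbours in the order, did not differ beyond the test (0.31 ± 0.13, adjusted p = 0.774), nor did cap LEC and BEC (0.33 ± 0.13, adjusted p = 0.0884). Against BEC, Itih2 was higher in col LEC (1.83 ± 0.13, adjusted p = 6.65e-07) and in pre-col LEC (0.64 ± 0.13, adjusted p = 0.00379). Pre-col LEC lay below the midpoint of col LEC and cap LEC by 0.44 (log2 difference -0.44 ± 0.11, unadjusted p = 0.00207), which did not survive adjustment over all genes (adjusted p = 1.00), in a contrast where 1 gene, a higher one, was called (0.00508%). The difference from cap LEC passed the test in all 21 alternative settings (1.34 to 1.62). That from pre-col LEC was lost when only these groups were fitted (adjusted p = 0.0973).

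Itih5 (TC0200000083.mm.1), a further heavy chain gene of the family, had the reverse order. Its values were 8.52, 8.63 and 9.39 in col LEC, 10.26, 10.07 and 9.99 in pre-col LEC, 10.77, 10.47 and 10.65 in cap LEC and 10.86, 10.84 and 10.68 in BEC. Col LEC lay below every other array, and cap LEC overlapped BEC. Within col LEC, the array with the highest Itih5 (replicate 3) also had the highest Lyve1 and the lowest Itih2.

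Itih5 was 3.44-fold lower in col LEC than in cap LEC (log2 fold change -1.78 ± 0.19, SE, adjusted p = 0.000374), and this call held in all 21 alternative settings (-2.05 to -1.60). It was also lower in col LEC than in pre-col LEC (-1.26 ± 0.19, adjusted p = 0.015). That call was lost in 4 of the 12 fits that left out 1 array, namely without col LEC replicate 1 (adjusted p = 0.0669) or 2 (0.078) and without pre-col LEC replicate 1 (0.0604) or 2 (0.0628). In col LEC minus pre-col LEC, 0 of the 8 mural markers (median -0.55) and 0 of the 5 tested fibroblast markers (median -0.22) were positive. Of these markers 0 were called, and the part of mural cells and fibroblasts was not tested. Pre-col LEC minus cap LEC was -0.52 ± 0.19 (adjusted p = 0.745) and cap LEC minus BEC -0.16 ± 0.19 (adjusted p = 0.55), so neither pair of neighbours differed beyond the test.

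**Figure D2:**
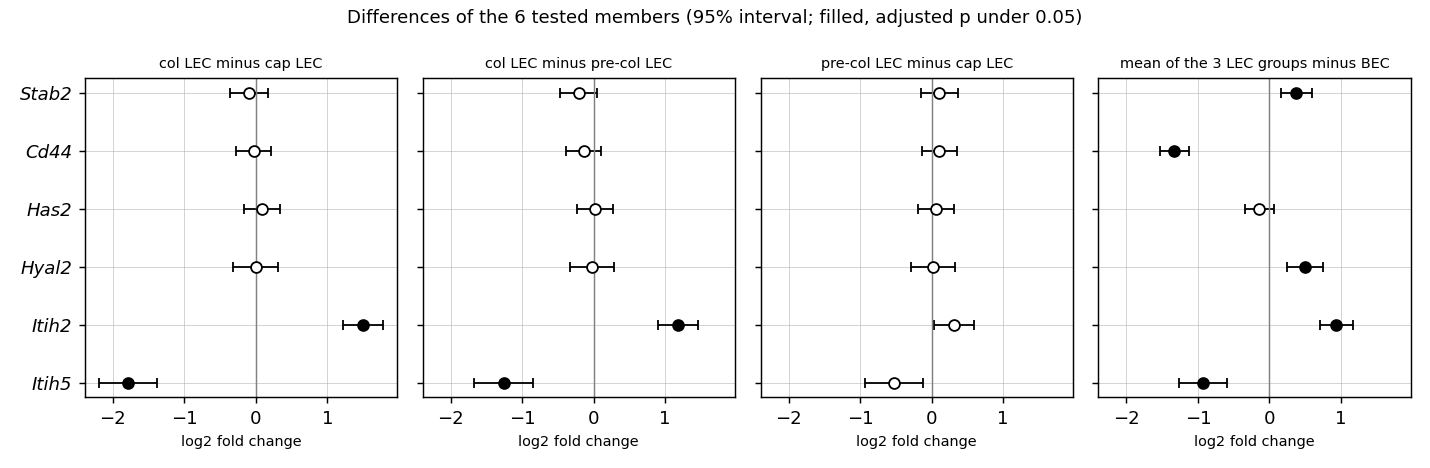
Log2 fold change with its 95% interval for the 6 tested genes other than Lyve1 in 4 comparisons, filled where the adjusted p was under 0.05. Itih2 (1.50) and Itih5 (-1.78) are the filled points in col LEC minus cap LEC, and Has2 is open in all 4 panels.

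Of the 6 tested members other than Lyve1, 1 was called higher and 1 lower in col LEC than in cap LEC, where 1.66% of all 19674 genes were called (0.661% higher and 0.996% lower). Between col LEC and pre-col LEC the members' count was the same, 1 higher and 1 lower, where 0.3% of all genes were called (0.117% higher and 0.183% lower). Between pre-col LEC and cap LEC no member was called, and limma called 0 of all genes (0%), with 1260 at an unadjusted p under 0.05. In LEC against BEC, 3 members were called higher and 2 lower, where 22.7% of all genes were called (12.1% higher and 10.6% lower). In col LEC against BEC, 2 members were called higher and 2 lower, where 16.3% of all genes were called (8.34% higher and 7.95% lower). In pre-col LEC against BEC, 3 were higher and 2 lower, where 15.6% were called (7.42% higher and 8.18% lower). In cap LEC against BEC, 2 were higher and 1 lower, where 20.8% were called (11.2% higher and 9.58% lower). Of these, the Stab2 call (0.37, adjusted p = 0.044) was lost in 11 of 21 alternative settings. It was lost in 8 of the 12 fits without 1 array, namely replicate 2 or 3 of col LEC, replicate 3 of pre-col LEC, any cap LEC array, or replicate 1 or 2 of BEC, with the highest adjusted p without cap LEC replicate 3 (0.136). These comparisons share the BEC arrays. The median over the 6 members was -0.02 in col LEC minus cap LEC, against 0.03 over all genes tested. The number of genes called between col LEC and cap LEC fell to between 179 and 202 when any 1 of the 6 arrays of those groups was left out. Between col LEC and pre-col LEC it fell to 24 without col LEC replicate 1, 33 without col LEC replicate 2, 27 without pre-col LEC replicate 2 and 35 without pre-col LEC replicate 3.

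Itih2 and Itih5 are neighbours on chromosome 2 with no annotated gene between them, and they are read away from each other on opposite strands. Their promoters are shown with that of Itih3, the third heavy chain gene that differed between the subtypes (described next), because Itih2 was higher, and Itih5 and Itih3 lower, in col LEC than in cap LEC. Each line holds the 250 bases before the gene's start, 5′ to 3′ on the gene's own strand, from RefSeq for build GRCm38.p6. Itih2 is at chr2:10130684-10130933 on the minus strand, Itih5 at chr2:10153293-10153542 on the plus strand and Itih3 at chr14:30923588-30923837 on the minus strand. Capitals mark matches to any of the 6 motifs searched.
Itih2: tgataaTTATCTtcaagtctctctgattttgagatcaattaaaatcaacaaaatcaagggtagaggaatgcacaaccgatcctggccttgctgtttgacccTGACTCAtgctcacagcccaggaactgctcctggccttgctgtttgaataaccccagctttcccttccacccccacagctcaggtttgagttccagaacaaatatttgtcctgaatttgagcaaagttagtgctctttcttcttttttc
Itih5: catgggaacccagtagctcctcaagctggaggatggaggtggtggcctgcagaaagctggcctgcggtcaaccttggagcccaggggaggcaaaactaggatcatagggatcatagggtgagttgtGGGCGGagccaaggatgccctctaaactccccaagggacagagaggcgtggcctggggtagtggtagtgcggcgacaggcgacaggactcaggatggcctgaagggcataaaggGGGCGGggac
Itih3: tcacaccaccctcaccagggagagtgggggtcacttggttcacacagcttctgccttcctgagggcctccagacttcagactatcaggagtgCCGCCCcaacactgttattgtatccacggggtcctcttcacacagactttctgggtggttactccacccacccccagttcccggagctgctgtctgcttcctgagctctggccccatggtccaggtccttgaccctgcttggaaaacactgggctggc

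All motifs were searched on both strands. The core promoter elements were the TATA box with the letters TATAAA, the GC box with the letters GGGCGG and the CCAAT box, spelled as named. The factor motifs were AGATAA for GATA factors, the letters TGTTTAC for forkhead factors and, for AP-1, the letters TGANTCA. No matches overlapped. Itih2 held AGATAA on the opposite strand, starting 244 bases before the start site, and TGANTCA at 149 bases before it. These motifs occur in 9.99% and 6.75% of the 32851 promoters of the same length. Itih5 held GGGCGG at 124 and at 10 bases before its start, and Itih3 held it on the opposite strand at 158 bases, a motif found in 32.7% of promoters. The TATA box, the CCAAT box and the forkhead motif, present in 12.4%, 33.8% and 3.17% of promoters, had no match in these windows. The share of G and C was 43.2% for Itih2, 61.2% for Itih5 and 58.8% for Itih3, against a median of 52.4% over all promoters. A match describes the letters and says nothing of binding.

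The family held further genes. Itih3 (TC1400001661.mm.1), whose product joins bikunin as pre-alpha-inhibitor, had 7.66, 7.35 and 7.15 in col LEC, 8.45, 7.93 and 7.85 in pre-col LEC, 9.20, 9.09 and 8.87 in cap LEC and 6.80, 6.86 and 7.01 in BEC. The groups did not overlap, and the lymphatic capillary gate was the highest. Itih3 was 3.18-fold lower in col LEC than in cap LEC (log2 fold change -1.67 ± 0.17, SE, adjusted p = 0.000266), in all 21 alternative settings. It was higher in LEC than in BEC by 1.28 ± 0.14 (adjusted p = 1.87e-05), and in cap LEC alone by 2.17 ± 0.17. Pre-col LEC alone was higher than BEC by 1.19 (adjusted p = 0.000279, limma). Col LEC, at 0.50 above BEC, did not pass the test in the main fit, though it did in some alternative settings. The step of pre-col LEC from cap LEC was -0.98 ± 0.17 (adjusted p = 0.0924), called with array weights (-1.10, adjusted p = 0.0149). The step of col LEC from pre-col LEC was -0.69 ± 0.17 (adjusted p = 0.188). Itih3 and Itih5 shared their direction between lymphatic subtypes. Against BEC, Itih5 was lower over the mean of the LEC groups (-0.93 ± 0.15, adjusted p = 0.000686). By group it was lower in col LEC (-1.95, adjusted p = 1.11e-05) and in pre-col LEC (-0.69, adjusted p = 0.0259). The pre-col LEC call was lost in 5 of 21 settings, and cap LEC did not differ from BEC beyond the test.

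Itih1 and Itih4, which adjoin Itih3 on chromosome 14, did not pass the test between lymphatic subtypes. Both were dim, with group means of 6.21 to 6.29 for Itih1 and 6.17 to 6.51 for Itih4. The array medians, the cut for dim signals, were 6.06 to 6.17, so differences of these genes may be compressed. Col LEC minus cap LEC was 0.05 ± 0.07 for Itih1 (95% interval -0.11 to 0.21) and -0.10 ± 0.09 for Itih4 (-0.29 to 0.10). Itih4 was lower in LEC than in BEC by 0.30 (log2 fold change -0.30 ± 0.07, adjusted p = 0.0113), a call lost without BEC replicate 3 (adjusted p = 0.0613). Ambp, which encodes bikunin, had a difference of 0.11 ± 0.11 between col LEC and cap LEC.

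**Figure D3:**
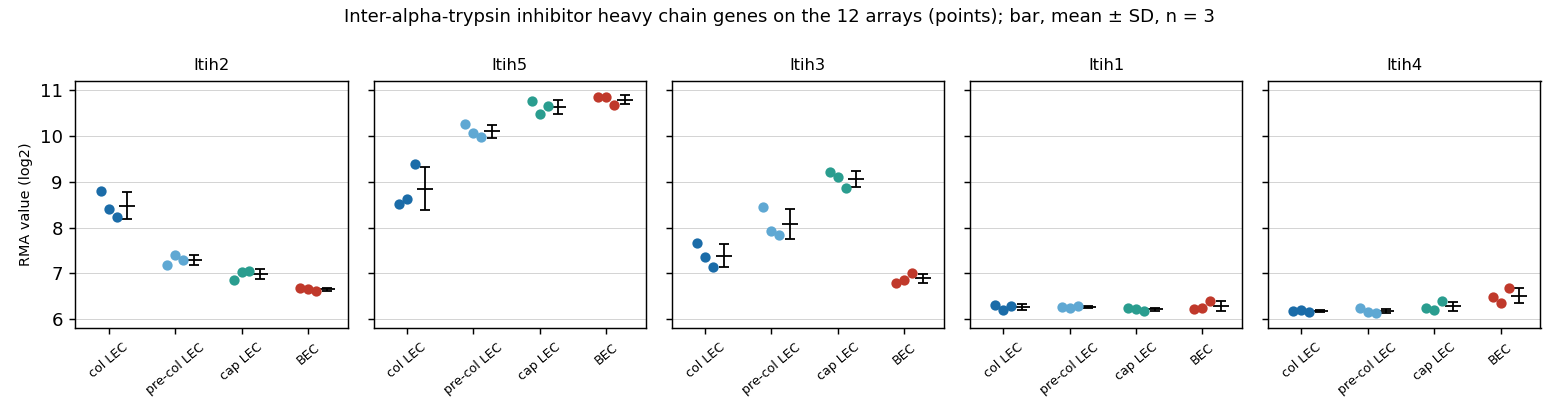
RMA value (log2) of the 5 heavy chain genes on each array, by group, with the mean ± SD over 3 arrays. Col LEC is highest for Itih2 and lowest of the LEC groups for Itih5 and Itih3, while Itih1 and Itih4 are level over the LEC groups.

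Tnfaip6 (TC0200000819.mm.1) encodes TSG-6, the enzyme that transfers heavy chains onto hyaluronan. It had 6.16, 5.50 and 5.63 in col LEC, 5.84, 5.66 and 5.54 in pre-col LEC, 5.45, 5.54 and 5.32 in cap LEC and 5.88, 5.71 and 6.11 in BEC. It exceeded the array median on 1 of 12 arrays, col LEC replicate 1, and was therefore not tested. On the col LEC and pre-col LEC arrays where Tnfaip6 was highest within the group, both replicate 1, the fibroblast markers were highest too. The part of fibroblasts was not tested. Ptx3, which encodes the pentraxin that binds heavy chains on hyaluronan, had 7.43, 7.30 and 7.13 in col LEC against 7.74, 8.07 and 7.80 in pre-col LEC. Its log2 fold change of -0.59 ± 0.11 (adjusted p = 0.0493) lay at the threshold and was lost without each of the 12 arrays in turn (adjusted p up to 0.197).

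Other genes of hyaluronan handling were taken from 7 lists of receptors, synthases, precursor enzymes, hyaluronidases, heavy chains, binding proteoglycans and cytoskeletal linkers. Of 50 listed genes without Lyve1, 47 had a row and 36 were tested. In col LEC minus cap LEC, 1 was called higher and 2 lower, where 0.661% and 0.996% of all genes were called. All 3 were heavy chain genes (Itih2, Itih3 and Itih5). The median over the 36 was -0.02. No receptor, synthase, precursor enzyme, hyaluronidase, proteoglycan or linker gene of the lists passed the test between col LEC and cap LEC. Of the linker genes, of which none was called in the comparisons of LEC groups or of LEC with BEC, Rdx (radixin) had 0.10 ± 0.08 and Msn (moesin) -0.07 ± 0.08 in col LEC minus cap LEC. Rdx was called higher in LEC than in BEC without BEC replicate 1 (0.22, adjusted p = 0.0392). In col LEC minus BEC it was called with array weights (adjusted p = 0.0258) and without BEC replicate 1 (0.0226). It was also called there without replicate 1 of col LEC, pre-col LEC and BEC together (0.0284). The closest to a call between col LEC and cap LEC was Tlr2, an innate receptor that also senses hyaluronan fragments, at 0.44 ± 0.11 (adjusted p = 0.09). Tlr2 was called with array weights (adjusted p = 0.0395), with only these groups fitted (0.0396) and without pre-col LEC replicate 1 (0.038) or 3 (0.0284).

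In LEC against BEC, 9 of the 36 were called higher and 8 lower, where 12.1% and 10.6% of all genes were called, and their median was -0.03, against -0.02 over all genes tested. Stab1, the scavenger receptor stabilin-1, had 10.63, 10.95 and 10.82 in col LEC, 10.56, 11.10 and 10.83 in pre-col LEC and 10.82, 11.09 and 10.98 in cap LEC, against 8.97, 9.03 and 9.10 in BEC. It was higher in LEC by 1.83 ± 0.11 (log2 fold change, SE, adjusted p = 8.47e-08), and the groups of LEC overlapped. Layn, encoding the receptor layilin, was higher in LEC by 0.93 ± 0.24 (adjusted p = 0.0148), with the call lost without BEC replicate 1 (0.0854) or 3 (0.0687) and with array weights (0.0802). The lysosomal hexosaminidase gene Hexa (0.69 ± 0.17), the link protein gene Hapln1 (0.49 ± 0.13) and Ptx3 (0.37 ± 0.09) were also higher, besides Stab2, Hyal2, Itih2 and Itih3. Hexa lost its call without BEC replicate 3 (adjusted p = 0.0559) and with array weights (0.0594), and Hapln1 without BEC replicate 2 (0.0562) or 3 (0.0899). The BEC values of Hapln1 (6.40, 6.15 and 6.07) lay near the array medians of 6.06 to 6.17.

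Of the genes lower in LEC, 1 belonged to the 3 tested synthases (Has3) and 1 to the 6 tested precursor enzymes (Uap1). The median was -0.14 over the synthases and 0.20 over the precursor enzymes, of which 4 had a positive value. Uap1, which forms UDP-N-acetylglucosamine, a building block of the chain, had a log2 fold change of -0.99 ± 0.12 (adjusted p = 4.82e-05). The synthase gene Has3 had 7.11, 6.98 and 6.97 in col LEC, 7.02, 7.04 and 7.12 in pre-col LEC and 7.07, 7.11 and 6.98 in cap LEC, against 7.49, 7.55 and 7.85 in BEC. Its log2 fold change was -0.59 ± 0.08 (adjusted p = 0.000139), and no LEC array reached the lowest BEC array. Cemip2, a cell surface hyaluronan-cutting protein, had -0.48 ± 0.11 (adjusted p = 0.00588), a call lost without the 3 arrays that stood apart by marker levels (col LEC, pre-col LEC and BEC replicate 1, adjusted p = 0.053). The link protein gene Hapln3 had -0.56 ± 0.10. Its values on LEC arrays, 6.09 to 6.38, lay near the array medians (6.06 to 6.17), so the size of that difference rests on dim values. The lysosomal glucuronidase gene Gusb had -0.31 ± 0.10 (adjusted p = 0.042) and lost its call in 10 of the 12 fits without 1 array, and kept it without replicate 2 of col LEC and without replicate 1 of BEC. The highest adjusted p was 0.207, without BEC replicate 2. As for Cd44, all 8 mural markers and 2 of the 3 tested keratinocyte markers were lower in LEC in this comparison, and their part was not tested.

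**Figure D4:**
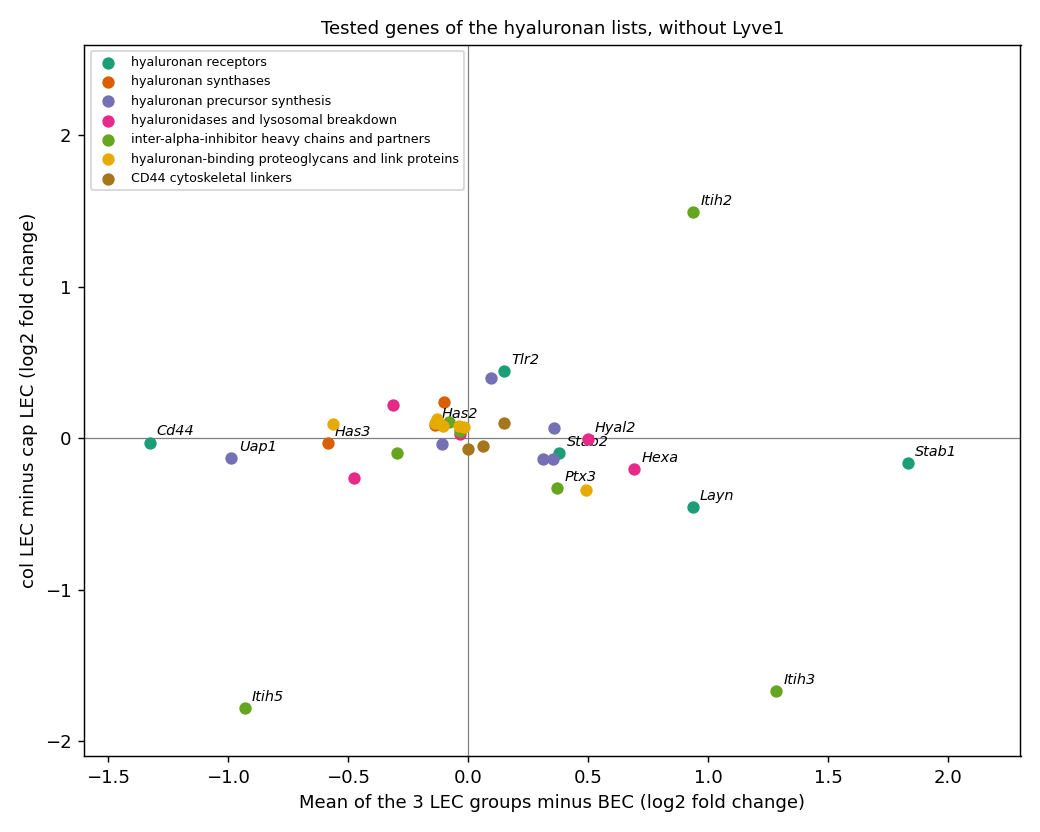
Log2 fold change of col LEC minus cap LEC (vertical) against the average over LEC groups less BEC (horizontal) for the 36 tested genes of the 7 lists without Lyve1, coloured by list. Itih2, Itih3 and Itih5 stand away from 0 on the vertical axis, and Stab1 (1.83) and Cd44 (-1.33) mark the ends of the horizontal one. Both axes use the col LEC and cap LEC arrays.

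The genes nearest in profile were found for the 4 members whose group means spanned more than 1 log2 unit. Likeness was the root mean square difference over the 12 arrays after centring each gene on its own mean. A shared order or highest group therefore follows from the choice and is a description only. Nearest to Itih2 were Adm (0.24 log2 units), which encodes the vasoactive peptide adrenomedullin, Ahsg (0.26), the plasma glycoprotein fetuin-A, and Tgfa (0.26), an EGF-family ligand. Adm averaged 12.35 in col LEC, 11.18 in pre-col LEC, 10.57 in cap LEC and 10.78 in BEC. Nearest to Itih5 were Ablim3 (0.27), an actin-binding protein gene, Dysf (0.28), the membrane repair gene dysferlin, and Nav3 (0.39). Dysf averaged 8.49 in col LEC, 9.59 in pre-col LEC, 10.07 in cap LEC and 10.65 in BEC, the same order as Itih5. Nearest to Cd44 were the transcription factor gene Tbx3 (0.09), the guidance receptor gene Robo2 (0.12) and Notch4 (0.12), all with their highest mean in BEC. Robo2 was dim in LEC, with group means of 5.04 to 5.11, below the array medians. Nearest to Lyve1 were Reln (0.78), Mrc1 (0.89) and Pdpn (0.93), at larger distances, and Lyve1 itself spanned 6.24 log2 units. Pdpn encodes podoplanin, which was also used in the sort, so its likeness is a description.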

How the data were processed

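Per the labels' protocols, each array was made from 500 pg of RNA after amplification, a small input that can add noise to weak signals. The log2 values analysed were deposited by the authors after RMA, per the submitters' processing notes, and RMA compresses differences of weak signals. Its software is not given in the sources used here. Array medians were 6.06 to 6.17, and depth does not apply, so the number of arrays limits precision. Rows were named from the platform annotation, updated through Entrez gene ID with RefSeq (GRCm38.p6, for names and gene order), and rows with several genes were left out. The brightest row stood for a gene, and genes above the array median on at least 3 arrays were tested. Group means were fitted on all 12 arrays with limma 3.58.1 (R 4.3.3), with Benjamini-Hochberg adjustment over 19674 genes, two-sided, called at adjusted p under 0.05. The 4 groups came from the sample titles. Errors are moderated SEs for fold changes and SDs for levels. The fit was tested on simulated data. Members, lists, tests and the naming rule were chosen with earlier results of these data known. The rule named the 9 members, each called gene of the lists, 2 genes of a list with none called and the 3 nearest profiles per member. Tlr2, Itih1, Ambp and, among marker genes, Itga9, Ptprc, Krt1, Krt5, Krt14, Trp63 and Dsg3 were named after their values were seen. Alternatives were another filter, normalization, row choice, weights, prior, block, subset of groups and leaving out arrays. Fits that leave 2 arrays in a group pool the spread over all groups. Replicate numbers did not meet the criterion for pairs (r over 0.1 in every same-numbered pair), so the fit has no block.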

Additional observations from a re-analysis of the deposited data

How the results depend on the processing

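Counts of called genes moved by more than 1.5 times under some settings. Between col LEC and cap LEC (326 genes) array weights gave 796, and leaving out 1 array gave 179 to 353. Between col LEC and pre-col LEC (59) array weights gave 153, fitting only the groups compared 5, and leaving out 1 array 24 to 63. Without the 3 arrays that stood apart by marker levels (replicate 1 of col LEC, of pre-col LEC and of BEC), a setting chosen after seeing the data, it gave 27. Between pre-col LEC and cap LEC (0) array weights gave 28, cyclic loess 13, the replicate block 3 and leaving out 1 array 0 to 1. For pre-col LEC minus the midpoint of col LEC and cap LEC (1) cyclic loess, the replicate block, array weights and eBayes with trend each gave 2. The same contrast gave 0 with only the groups compared and without the 3 arrays, and 0 to 2 when 1 array was left out. The causes were not tested. With the replicate block the other counts were 375 for col LEC minus cap LEC, 72 for col LEC minus pre-col LEC and 4469 for LEC minus BEC. The block gained calls against BEC for Itih3 in col LEC (adjusted p = 0.0354), Layn in col LEC (0.0245) and pre-col LEC (0.00849), Hexa in col LEC (0.0419) and pre-col LEC (0.0395) and Gusb in pre-col LEC (0.0472), and changed no other call of the listed genes. Deviations from group means correlated at 0.05 to 0.21 for the 9 same-numbered pairs between LEC groups (5 over 0.1), against -0.14 to 0.02 for other numbers. Between LEC groups every array correlated best with its own number (18 of 18 comparisons), which held in 10 of 18 between LEC and BEC. That is a hint of pairing from the data, not from the design.

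The comparisons of the 6 tested members other than Lyve1 kept their side of the threshold in 955 of 1002 settings, lost a call in 45 and gained a call in 2, with 0 reversals of a called value. That total includes comparisons not called in the main fit, which had no call to lose. The losses fell on Hyal2, Stab2 and Itih5, and in 1 setting on Itih2. The comparisons with the largest numbers of losses were Stab2 in cap LEC minus BEC (11 of 21 settings) and Hyal2 in col LEC minus BEC (8 of 21). The gains were Itih2 in cap LEC minus BEC, without col LEC replicate 1 (adjusted p = 0.0259) and without the 3 arrays (0.0429). Without the 3 arrays, Itih5 in col LEC minus pre-col LEC was -1.02 (adjusted p = 0.193), and with only those groups fitted its adjusted p was 0.188. Weak signals such as Tnfaip6 limit what can be seen on these arrays.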
